A study of Homo sapiens with 6 samples.

Results

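The genes described here encode REST, a repressor of neuronal and neuroendocrine genes, and the corepressors that act with it. They were chosen by name as 10 genes (REST, RCOR1, RCOR2, RCOR3, KDM1A, SIN3A, GFI1, HDAC1, HDAC2 and EHMT2) out of the 62696 genes in the count files, and all 10 were found and had enough counts to be tested. RNA-Seq was carried out in DMS53, an established small cell lung cancer (SCLC) line with neuroendocrine features, in 3 control libraries and 3 libraries with enforced expression of the transcription factor OC2 (OC2-OE), to ask whether OC2 has a role in the plasticity of these cells. Control cells carried the empty lentiviral vector pLenti-C-mGFP-P2A-Puro and OC2-OE cells carried a lentiviral ONECUT2 open reading frame tagged with mGFP and expressed constitutively, so that a lentiviral vector and puromycin selection were common to both groups. The labels number the libraries of each group from 1 to 3 and do not say whether the cells were transduced pools or clones. The study describes its replicates as independent experiments, and if they came from the same transduced cells the p-values measure only the spread between those experiments.

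REST is a zinc finger protein that binds a DNA element called RE1 beside neuronal and neuroendocrine genes and keeps them silent in other cell types. Its amino-terminal repression domain recruits SIN3A, and its carboxy-terminal domain recruits the CoREST scaffold (RCOR1), and both scaffolds bring the histone deacetylases HDAC1 and HDAC2. The CoREST complex also holds the histone demethylase KDM1A (LSD1), and G9a (EHMT2) is a histone methyltransferase that REST recruits. GFI1 is a different DNA-binding repressor, whose SNAG domain docks on the same KDM1A and CoREST module. Neuroendocrine SCLC usually holds little REST, and non-neuroendocrine SCLC holds more.

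REST, the CoREST scaffolds RCOR1 and RCOR3, and the histone-modifying enzymes KDM1A and EHMT2 were higher in OC2-OE cells, whereas the scaffold RCOR2 and the deacetylases HDAC1 and HDAC2 were lower. RCOR1 showed the largest rise among the members (2.02-fold) and RCOR2 the largest fall (1.68-fold). The levels of SIN3A and GFI1 did not pass the test. Of the 10 members, 5 rose and 3 fell at an adjusted p under 0.001 (edgeR's quasi-likelihood test, Benjamini-Hochberg adjustment over 17307 genes), where 56.5% of all tested genes passed in either direction, 27.8% higher and 28.7% lower. The share of members that passed was 80%. The members and the lists of related genes below were chosen with earlier results of these data known, so such shares only describe the genes named. The median log2 fold change of the members was 0.12, against 0.0071 for all tested genes, with a range from -0.75 to 1.02. Where the absolute log2 fold change also had to reach 1, as it did in 17.3% of all tested genes (8.29% higher and 9.04% lower), RCOR1 was the only member left. With single libraries left out, the log2 fold change of RCOR1 ran from 0.93 to 1.08, so it did not reach 1 in every such fit. The libraries of the groups did not overlap for 8 of the 10 members (5 higher and 3 lower), against 73.2% of all tested genes (36.5% higher and 36.7% lower). In bulk RNA, fewer cells of a type and less RNA per cell cannot be told apart.

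The libraries held between 16533284 and 19099337 counted read pairs, and the common biological coefficient of variation was 2.2%. ONECUT2, the gene that encodes OC2 and the check on the labels, had 1271 counts in the control libraries together and 215647 in the OC2-OE libraries. The 7 markers of neuroendocrine SCLC all had counts, and their summed level lay between 1310 and 1330 CPM (the count scaled by the TMM-normalised size of its library) in control libraries and between 872 and 895 CPM in OC2-OE libraries, with 1 marker higher and 5 lower. Markers of other cell types had lower sums than these, though not all were below the level of REST (means of 9.91 CPM in control and 16.3 CPM in OC2-OE). The 6 fibroblast markers together reached 21.2 to 23.9 CPM in control and 28.1 to 32.1 CPM in OC2-OE libraries. Most of that was COL1A1, with means of 21.5 and 27.8 CPM. The 5 leukocyte markers reached 3.32 to 4.12 and 5.60 to 6.42 CPM, with CD3E at 0 counts in every library and PTPRC at 0 counts in control libraries. Most of this sum was CD14, with means of 3.60 CPM in control and 5.855 CPM in OC2-OE libraries. CD14 was higher in OC2-OE cells, with a log2 fold change of 0.71 (adjusted p = 1.5e-05, edgeR). The 4 endothelial markers reached 12.7 to 15 and 4.17 to 4.73 CPM. In control libraries most of that was KDR, which went from a mean of 10.6 to 1.55 CPM (log2 fold change -2.77, adjusted p = 1.37e-33, edgeR). These sums differed between the groups, and their part in the results below was not tested.

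**Figure D1:**
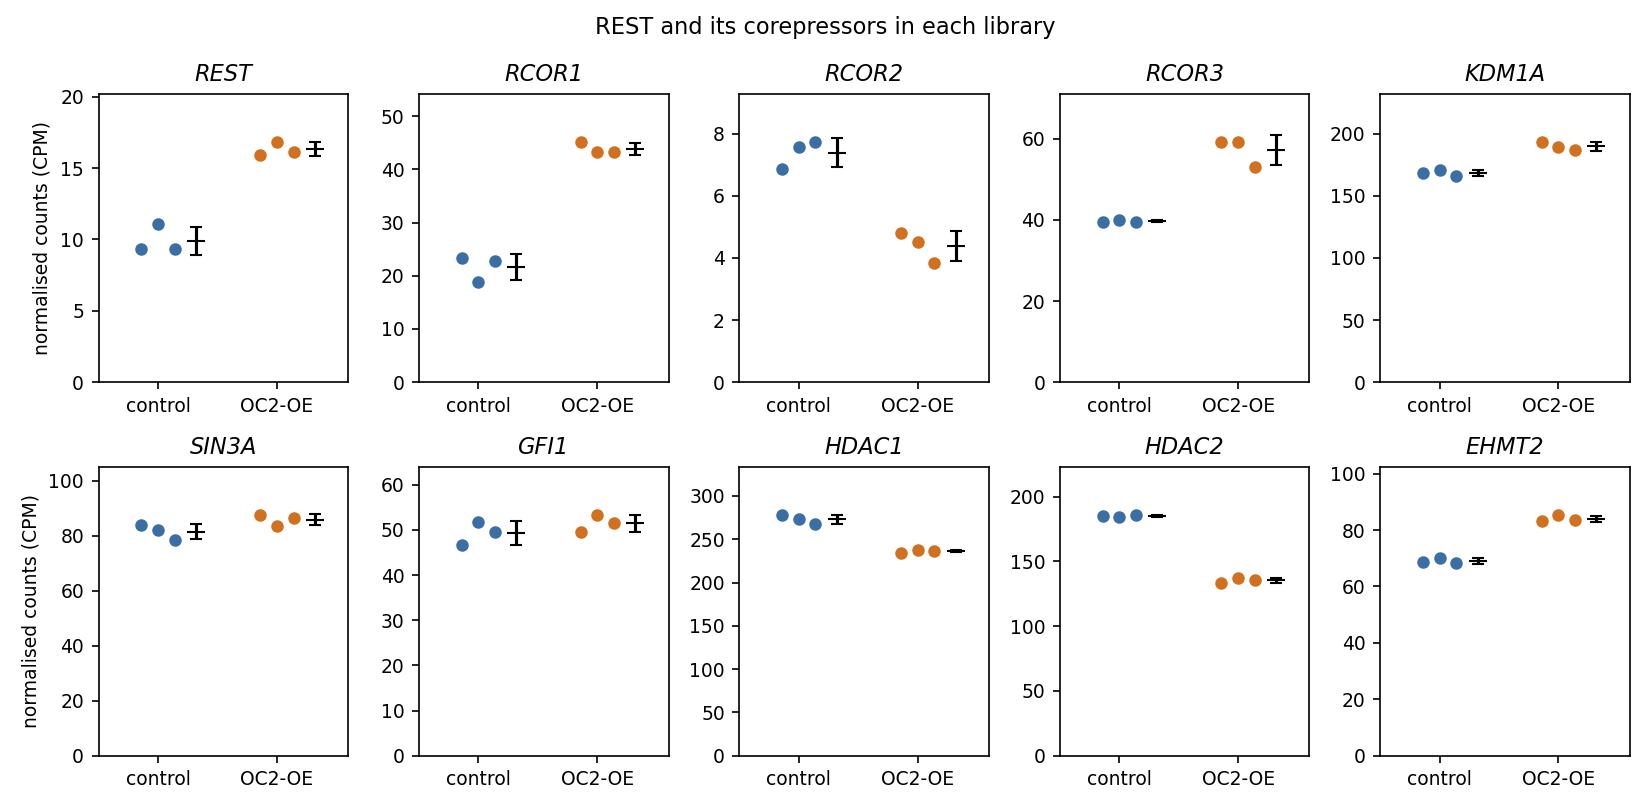
Normalised counts (CPM, vertical axes from 0) of the 10 genes in the 3 control libraries (blue) and the 3 OC2-OE libraries (orange), with the mean and SD of each group in black. The points of the groups are apart for REST, RCOR1, RCOR2, RCOR3, KDM1A, HDAC1, HDAC2 and EHMT2, and overlap for SIN3A and GFI1.

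REST (ENSG00000084093.19) lies on chromosome 4 from 56907876 to 56966808, plus strand, on GRCh38. Its counts were 174, 185 and 152 in control replicates 1, 2 and 3, and 305, 292 and 294 in OC2-OE replicates 1, 2 and 3. After TMM normalisation these were 9.31, 11.1 and 9.35 CPM against 15.9, 16.9 and 16.1 CPM. Every OC2-OE library was above every control library, and the spread among control libraries (10.1% of their mean) was somewhat wider than the 7.66% that counting error alone gives at these counts. The mean rose from 9.91 ± 0.997 CPM to 16.3 ± 0.489 CPM (SD, n = 3 each), a log2 fold change of 0.72 ± 0.09 (SE) with an adjusted p of 5.77e-12 by edgeR. Across 15 alternative settings the log2 fold change stayed between 0.67 and 0.80. This change was larger in absolute size than that of 71.8% of all tested genes. The counts are summed over the exons of the gene, so the full-length repressor and the truncated neural splice form REST4 were not measured apart. The exons of NOA1 overlap those of REST on the opposite strand, and the counting step used the strand.

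The CoREST scaffolds changed in different directions. RCOR1, the founding CoREST scaffold that ties KDM1A to the deacetylases and to REST, lies on chromosome 14 from 102592649 to 102730561, plus strand. It stood at 23.3, 18.9 and 22.8 CPM in control replicates 1 to 3 and at 45.2, 43.3 and 43.2 CPM in OC2-OE replicates 1 to 3. All 3 OC2-OE libraries were above all 3 control libraries. The log2 fold change was 1.02 ± 0.06 (SE) with an adjusted p of 4.33e-31, and it stayed between 0.93 and 1.08 across the alternative settings. RCOR3, a related scaffold that binds KDM1A and is expressed in many tissues, lies on chromosome 1 from 211258377 to 211316385, plus strand. Its levels were 39.6, 40.0 and 39.6 CPM in control and 59.3, 59.3 and 52.97 CPM in OC2-OE libraries. OC2-OE replicate 3 was the lowest of its group and still above all control libraries. The log2 fold change of RCOR3 was 0.52 ± 0.05 (adjusted p = 9.50e-18, edgeR).

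RCOR2, the scaffold paralogue best known from neural and stem cells, went the other way. It lies on chromosome 11 from 63911230 to 63917164, minus strand, and had 128, 127 and 126 counts in control and 92, 78 and 70 counts in OC2-OE libraries. These correspond to 6.85, 7.59 and 7.75 CPM against 4.80, 4.502 and 3.84 CPM. The groups did not overlap, although RCOR2 had the fewest counts of all members. Its log2 fold change was -0.75 ± 0.13 (SE) with an adjusted p of 3.63e-07, between -0.82 and -0.66 across the alternative settings. The spread among OC2-OE libraries (11.2%) equalled what counting error alone gives (11.2%).

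Since RCOR1 rose and RCOR2 fell, the make-up of the family was computed in each library from counts divided by the exon length of each gene. RCOR2 made up 21.7%, 25.04% and 24.0% of the family in control replicates 1 to 3 and 10.2%, 9.85% and 8.97% in OC2-OE replicates 1 to 3. RCOR1 went from 36.3%, 30.6% and 34.8% to 47.4%, 46.7% and 49.6%. RCOR3 stayed near the same share, with 42.5% ± 1.62 in control and 42.4% ± 1.02 in OC2-OE (SD, n = 3 each), and its libraries overlapped. The mean share of RCOR2 differed by -13.9 percentage points (23.6% ± 1.73 against 9.68% ± 0.647). In an exact two-sided permutation test the p was 0.1, which is the smallest that 3 against 3 libraries allow, and also 0.1 after adjustment over the 5 share tests made. With RCOR2 lower and RCOR1 and RCOR3 higher in every OC2-OE library than in every control library, this p was fixed by those values. It adds no separate support. Length matters for the size of this shift. Without division by length the difference was -6.61 percentage points, and with GENCODE release 29 transcript lengths, an alternative chosen after the data were seen, it was -6.39. Which scaffold made up most of the family also depended on length. With release 29 lengths RCOR3 held 74.7% in control and 75.03% in OC2-OE libraries and RCOR1 14.4% and 20.5%, and without division by length RCOR3 held 57.8% and 54.2% and RCOR1 31.4% and 41.7%.

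**Figure D2:**
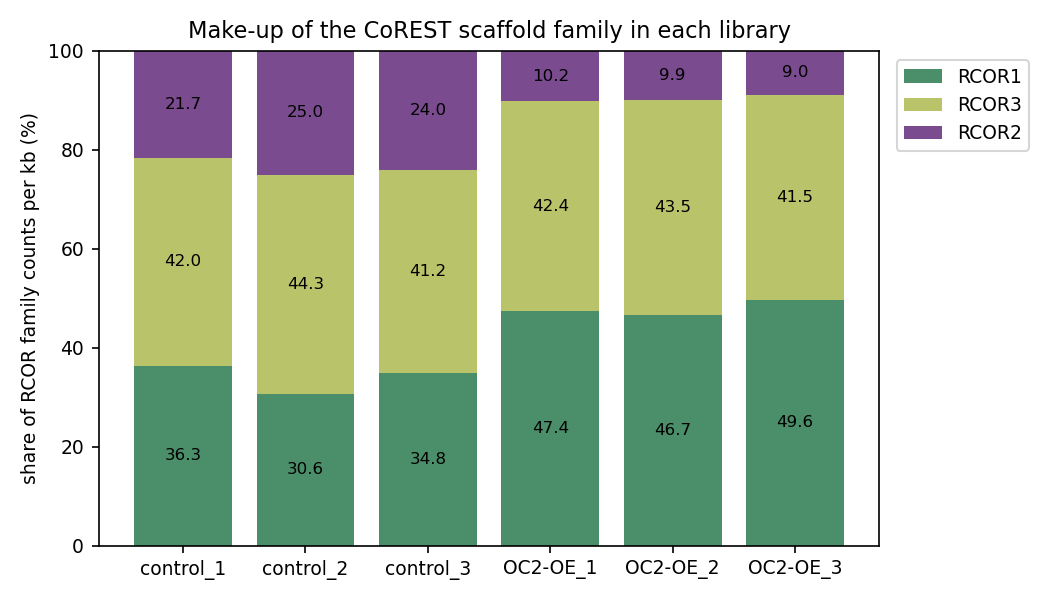
Share of RCOR1, RCOR3 and RCOR2 in the summed counts per kb of the family (%, vertical axis) in each of the 6 libraries. The RCOR2 segment is between 21.7% and 25.04% in control libraries and between 8.97% and 10.2% in OC2-OE libraries, and the RCOR1 segment is larger in every OC2-OE library.

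The sequences upstream of REST and RCOR1, the members with the largest rises, and of HDAC1, which fell, are shown as examples of members that moved in opposite directions. The HDAC2 window is not shown, since it lies inside the gene as the count files give it. They are RefSeq sequences on GRCh38.p14, ending just before the first base of the gene in the count files and all on the plus strand. Capitals mark the GC box GGGCGG, bound by SP1 and related factors, and the CCAAT box, bound by NF-Y, on either strand. REST is shown for chr4:56907650-56907875, RCOR1 for chr14:102592399-102592648 and HDAC1 for chr1:32291833-32292082.
REST: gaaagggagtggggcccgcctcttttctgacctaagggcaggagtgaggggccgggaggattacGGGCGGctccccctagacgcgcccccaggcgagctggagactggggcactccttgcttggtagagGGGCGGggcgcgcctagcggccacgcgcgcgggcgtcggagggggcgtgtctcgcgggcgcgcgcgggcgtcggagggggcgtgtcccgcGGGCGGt
RCOR1: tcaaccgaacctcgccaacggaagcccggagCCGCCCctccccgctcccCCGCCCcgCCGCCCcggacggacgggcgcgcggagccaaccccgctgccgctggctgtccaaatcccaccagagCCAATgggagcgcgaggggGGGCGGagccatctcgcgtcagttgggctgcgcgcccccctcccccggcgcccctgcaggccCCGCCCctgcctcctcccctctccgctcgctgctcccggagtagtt
HDAC1: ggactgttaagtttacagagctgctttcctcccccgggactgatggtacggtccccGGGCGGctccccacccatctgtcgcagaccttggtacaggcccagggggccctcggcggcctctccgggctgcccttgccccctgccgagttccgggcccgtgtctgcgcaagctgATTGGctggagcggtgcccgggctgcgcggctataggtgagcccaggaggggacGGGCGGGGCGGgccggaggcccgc
The REST stretch held 3 GC boxes and no CCAAT box, that of RCOR1 5 GC boxes and 1 CCAAT box, and that of HDAC1 3 GC boxes and 1 CCAAT box. Their GC content was 75.2%, 76.4% and 71.6%, against a median of 58% over the upstream part of all windows. Windows from 250 bases before to 50 bases after a start site were found for 9 of the 10 members (14 windows). The GC box occurred in 13 of these 14 windows and the CCAAT box in 6, and in 45.0% and 34.6% of all 35116 windows. The window of HDAC2, which fell more than HDAC1, held neither box and had a GC content of 63.2% in its upstream part, and HDAC2 was the only member with a window but no GC box. The core letters of ONECUT sites were searched on both strands as ATCGAT, present in 0.763% of all windows, and ATTGAT, present in 6.26%. Neither was found in a window of a member, nor was the RE1 core (CAGCACC and GGACAG with any pair of bases between them, in 0.0513% of all windows), which says only that these letters are not in these windows.

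Among the catalytic subunits, the demethylase and the methyltransferase rose by small amounts. KDM1A, the subunit of the CoREST complex that removes methyl groups from histone H3, lies on chromosome 1 from 23019443 to 23083689, plus strand. It stood at 168, 171 and 166 CPM in control and 194, 189 and 187 CPM in OC2-OE libraries. The ranges were apart and the coefficients of variation were 1.43% and 1.83%. The log2 fold change was 0.17 ± 0.03 (SE, adjusted p = 8.34e-08, edgeR), an absolute size above that of 25.4% of the tested genes. EHMT2, the G9a methyltransferase, lies on chromosome 6 from 31879759 to 31897698, minus strand, and had 68.5, 70.2 and 68.3 CPM against 83.3, 85.3 and 83.4 CPM. All OC2-OE libraries were higher than all control libraries, with a log2 fold change of 0.28 ± 0.04 (adjusted p = 3.44e-10).

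The deacetylases fell. HDAC2 (chromosome 6, 113933028 to 114011308, minus strand) stood at 185, 184 and 186 CPM in control replicates 1 to 3 and at 133, 137 and 136 CPM in OC2-OE replicates 1 to 3. The coefficient of variation of the control libraries was 0.399%, and the groups did not overlap. Its log2 fold change was -0.45 ± 0.03 (SE, adjusted p = 7.32e-28, edgeR), the largest fall among the members after that of RCOR2. HDAC1 (chromosome 1, 32292083 to 32333635, plus strand) went from 278, 274 and 267 CPM to 234, 238 and 237 CPM. The groups again did not overlap, and the log2 fold change was -0.21 ± 0.03 (adjusted p = 2.75e-12). HDAC1 and HDAC2 can stand in for each other in many complexes. The share of HDAC2 in their summed counts per kb went from 14.9% ± 0.286 to 12.9% ± 0.0898 (SD, n = 3 each, exact permutation p = 0.1, the smallest possible). Without division by length it went from 40.4% to 36.4%.

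SIN3A and GFI1 gave no call. SIN3A, the scaffold at the amino-terminal end of REST, lies on chromosome 15 from 75369379 to 75455842, minus strand, and stood at 84.0, 82.2 and 78.3 CPM in control and 87.5, 83.5 and 86.3 CPM in OC2-OE libraries. Control replicate 1 was above OC2-OE replicate 2, and the log2 fold change was 0.07 ± 0.04 (SE, adjusted p = 0.0871, edgeR). GFI1 lies on chromosome 1 from 92473043 to 92486925, minus strand, and had 46.6, 51.8 and 49.6 CPM in control and 49.5, 53.3 and 51.5 CPM in OC2-OE libraries. The groups overlapped, with a log2 fold change of 0.06 ± 0.05 and an adjusted p of 0.256. Over the alternative settings the log2 fold change ran from 0.04 to 0.12 for SIN3A and from 0.02 to 0.11 for GFI1.

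**Figure D3:**
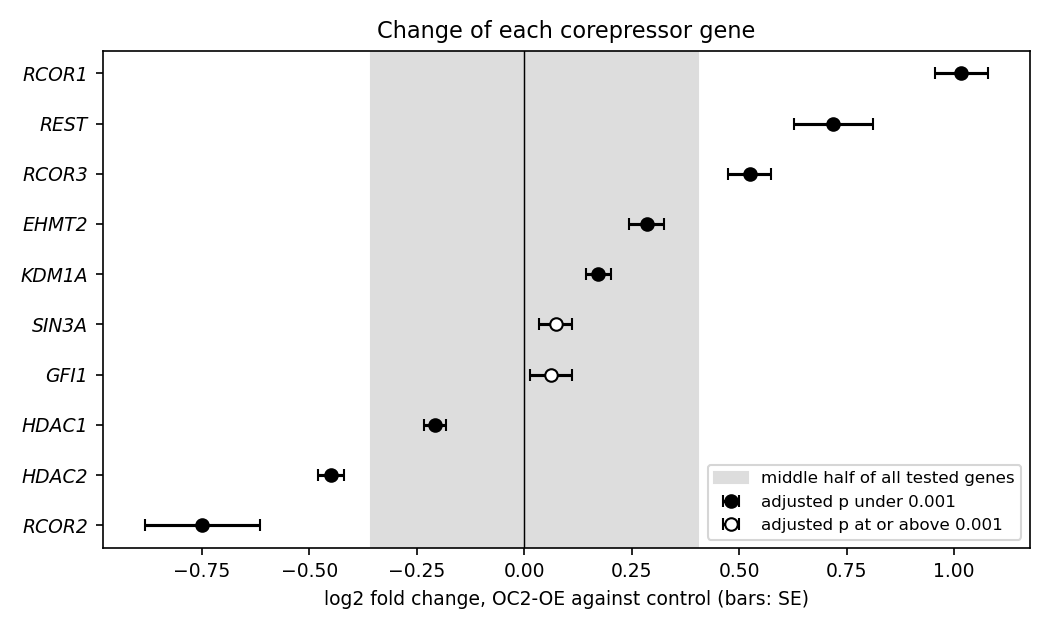
Log2 fold change of OC2-OE against control (horizontal axis) with its SE for the 10 genes, ordered by size. Filled points have an adjusted p under 0.001, and the grey band holds the middle of all tested genes from the lower quartile (-0.36) to the upper quartile (0.40), outside which lie RCOR1, REST and RCOR3 on the right and HDAC2 and RCOR2 on the left.

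The members differed widely in level. Per kb of exon length, HDAC1 was the most abundant in control libraries with 68.8 ± 1.34 CPM per kb (SD, n = 3), followed by HDAC2 with 12.1 ± 0.0481 and EHMT2 with 9.45 ± 0.141. KDM1A (9.20 ± 0.132) and GFI1 (8.74 ± 0.462) came next, and their libraries overlapped. SIN3A (6.34 ± 0.224), RCOR3 (4.37 ± 0.0277), RCOR1 (3.50 ± 0.393) and RCOR2 (2.43 ± 0.157) followed in that order without overlap between neighbours. REST was the least abundant at 1.05 ± 0.106 CPM per kb, above 26.9% of the tested genes. In OC2-OE libraries RCOR1 reached 7.09 ± 0.184 and stood above SIN3A (6.68 ± 0.158) and RCOR3 (6.29 ± 0.402), whose libraries overlapped. HDAC2 fell to 8.84 ± 0.133 and overlapped GFI1 (9.11 ± 0.332). REST reached 1.73 ± 0.0520 and RCOR2, at 1.44 ± 0.161, became the lowest of all members in each library.

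This order rests on the lengths, which sum every annotated exon of a gene. For KDM1A that length was 18325 bases, against 3059 bases for the GENCODE release 29 transcript with its longest coding sequence. With the latter lengths KDM1A was the second and RCOR3 the third in control libraries, HDAC1 was still the first, and RCOR1, RCOR2 and REST were still the eighth, the ninth and the tenth. The order of RCOR1, SIN3A and RCOR3 in OC2-OE libraries turned with those lengths, to 28.0 CPM per kb for RCOR3, 12.7 for SIN3A and 7.63 for RCOR1.

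**Figure D4:**
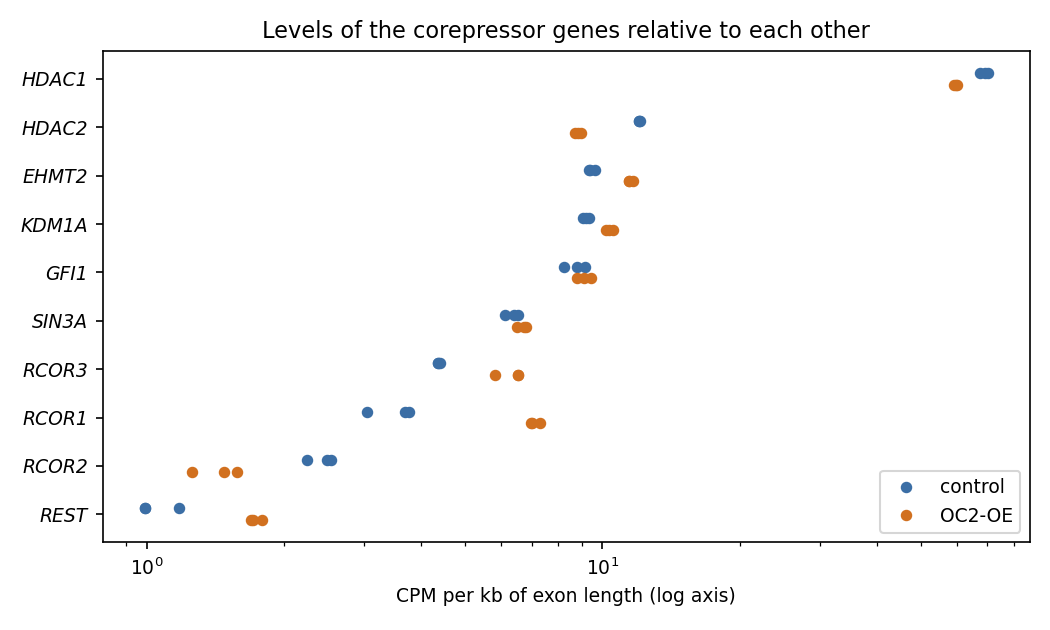
Level of each gene in CPM per kb of exon length (horizontal log axis) in the 3 control (blue) and 3 OC2-OE (orange) libraries. HDAC1 is at 59.1 to 70.1 and REST at 0.990 to 1.79 CPM per kb, and the positions of RCOR2 and REST cross between the groups.

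Most members have paralogues, genes of related sequence, and those examined were KDM1B, SIN3B, GFI1B, HDAC3, HDAC8 and EHMT1. Of the 5 that were tested, 3 rose and 2 did not pass the test (60% passed, near the 56.5% of all genes), and the median of their log2 fold changes was 0.39, or 0.20 with no filter on low counts. SIN3B had 448, 408 and 410 counts in control and 644, 624 and 598 counts in OC2-OE libraries, a log2 fold change of 0.48 ± 0.06 (SE, adjusted p = 1.31e-11, edgeR). SIN3A did not pass the test, and its share of the SIN3A and SIN3B counts per kb was 69.4% ± 1.30 in control and 63.2% ± 1.63 in OC2-OE libraries, lower in each OC2-OE library. KDM1B rose by 0.42 ± 0.06 (adjusted p = 6.58e-10), and the share of KDM1A in the pair went from 66.1% ± 0.439 to 62.3% ± 0.0209, or from 85.7% to 83.5% with release 29 lengths and from 86.4% to 84.3% without division by length. HDAC3, the deacetylase of the NCoR and SMRT corepressors, rose by 0.39 ± 0.04 (adjusted p = 2.46e-18), whereas HDAC1 and HDAC2 fell. EHMT1, the partner of G9a in its dimer, had a log2 fold change of -0.0018 ± 0.04 (adjusted p = 0.969), and EHMT2 made up 70.3% ± 0.738 of the pair in control and 74.3% ± 0.649 in OC2-OE libraries. With release 29 lengths the share of EHMT2 was 49.2% and 54.2%, and without division by length 43.7% and 48.7%, so which of the pair was in the majority depended on length. The exact permutation p of each of these share differences was 0.1, the smallest possible. These shares come from the same counts as the fold changes and are not separate evidence. HDAC8 had an adjusted p of 0.214, and GFI1B, with 5 counts in the control libraries and 2 in the OC2-OE libraries, was not tested.

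Other subunits of the CoREST and G9a complexes went both ways. Of 14 genes, 6 rose and 3 fell (64.3% of those tested passed, against 56.5% of all genes), with a median log2 fold change of 0.07. ZNF217, a zinc finger protein found with CoREST and CtBP, had 135, 93 and 85 counts in control and 250, 225 and 210 counts in OC2-OE libraries. All OC2-OE libraries were above all control libraries, with a log2 fold change of 1.05 ± 0.11 (SE, adjusted p = 1.95e-15, edgeR). PHF21A, the subunit that reads unmethylated histone H3, rose by 0.53 ± 0.05 (adjusted p = 2.36e-16). KDM5C, a demethylase found with REST and G9a, rose by 0.36 ± 0.03 (adjusted p = 1.73e-26). GSE1, a subunit found in KDM1A and HDAC complexes, was lower in each OC2-OE library, with a log2 fold change of -0.39 ± 0.03 (adjusted p = 1.34e-24).

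Subunits of the SIN3 and HDAC complexes also went both ways. Of 13 genes, 2 rose and 6 fell (61.5% of those tested passed, near the 56.5% of all genes), and the median of the log2 fold changes was -0.13. At an adjusted p under 0.05, 10 of the 13 were lower, where 35.7% of all tested genes were lower at that threshold. BRMS1L fell by 0.42 on the log2 scale (SE 0.08, adjusted p = 2.37e-06) and SAP30 by 0.44 (SE 0.09, adjusted p = 1.94e-05), both subunits of SIN3 complexes. SAP30 missed the threshold in the fit without control replicate 2 (log2 fold change -0.34, adjusted p = 0.00313) and in the DESeq2 Wald test (adjusted p = 0.00112), with adjusted p-values from 2.57e-06 to 0.00313 over all its alternatives. SAP30L, the paralogue of SAP30, rose by 0.41 ± 0.05 (adjusted p = 2.36e-14), and SUDS3, a core subunit of the SIN3 complex, by 0.29 ± 0.03 (adjusted p = 1.03e-16).

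All 10 regulators of REST examined passed the test, 2 higher and 8 lower, beside 56.5% of all tested genes. The list was chosen with earlier results of these data known, so this share describes these genes and is no evidence about regulators of REST in general. Their median log2 fold change was -0.23. SRRM4, the splicing factor that produces the truncated REST4 form in neural cells, had 80, 78 and 90 counts in control and 60, 50 and 54 counts in OC2-OE libraries. The groups did not overlap, and the log2 fold change was -0.68 ± 0.16 (SE, adjusted p = 1.28e-04, edgeR). SRRM4 missed the threshold without control replicate 3 (-0.58, adjusted p = 0.00406), without OC2-OE replicate 2 (-0.65, 0.00105) and without OC2-OE replicate 3 (-0.67, 0.00135), and in the DESeq2 Wald test (adjusted p = 0.00253), with adjusted p-values from 8.73e-05 to 0.00406 over all its alternatives. PRICKLE1, a nuclear membrane protein that binds REST and bears on its entry into the nucleus, had 210, 195 and 159 counts against 129, 108 and 113 counts, a log2 fold change of -0.77 ± 0.11 (adjusted p = 8.70e-10). CTDSPL, a member of the small phosphatase family that is recruited with REST and acts on RNA polymerase, rose from 8.22 ± 0.540 to 14.1 ± 1.03 CPM, by 0.78 ± 0.10 on the log2 scale (adjusted p = 5.00e-12). The other 2 phosphatases of that family, CTDSP1 (-0.22 ± 0.05) and CTDSP2 (-0.13 ± 0.03), fell. BTRC, the ubiquitin ligase subunit that targets REST for degradation and the other gene that rose (0.18 ± 0.05, adjusted p = 2.28e-04), missed the threshold in the DESeq2 Wald test and in the fits without control replicate 3 or OC2-OE replicate 3, which left 1 of the 10 genes higher. USP7 (-0.24 ± 0.03) and USP15 (-0.20 ± 0.03), deubiquitinases known to act on REST, were both lower.

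GFI1 belongs to a group of repressors that carry a SNAG domain and so share the KDM1A and CoREST module. Of 9 others in the group 8 were tested, of which 1 rose, 1 fell and 6 did not pass, a share of 25% against 56.5% of all genes. Several of those that did not pass had few counts. SNAI1, SNAI3, INSM2 and SCRT2 had 151, 162, 80 and 48 counts in the control libraries together. The libraries of the groups did not overlap for 2 of the 8 that were higher and 4 that were lower, against 36.5% and 36.7% of all tested genes. The share of 25% therefore does not show that the group was stable. At an adjusted p under 0.05, 3 of the 8 were lower, near the 35.7% of all tested genes. With no filter on low counts the median log2 fold change of the group went from -0.046 to -0.22. INSM1, a neuroendocrine transcription factor, had 5996, 5546 and 5444 counts in control and 1534, 1473 and 1725 counts in OC2-OE libraries. Its log2 fold change was -1.93 ± 0.03 (SE, adjusted p = 3.19e-41, edgeR). SCRT1, a neural repressor, had 74, 67 and 66 counts against 154, 144 and 125 counts, a log2 fold change of 0.95 ± 0.14 (adjusted p = 5.15e-10).

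Known targets of REST were examined next, as a list written from general knowledge of 32 genes with RE1 elements, of which 28 had enough counts. In OC2-OE cells 8 were higher, 10 were lower and 10 did not pass (64.3% of those tested passed, against 56.5% of all genes), and the median log2 fold change was -0.05. Among the genes that fell, SYT4, a synaptotagmin of secretory vesicles, had 6471, 5727 and 5450 counts in control and 1903, 1737 and 1766 counts in OC2-OE libraries (log2 fold change -1.79 ± 0.03, adjusted p = 1.24e-88). CALB1, a neuronal calcium buffer, was lower at -1.48 ± 0.23 (adjusted p = 8.47e-09), STMN2, a regulator of neuronal microtubules, at -0.91 ± 0.14 (adjusted p = 2.42e-09) and SNAP25, a membrane fusion protein of synapses, at -0.85 ± 0.03 (adjusted p = 7.53e-52). Genes of the same kind rose. SCG2, a granin of dense core vesicles, went from 15320, 13491 and 12652 counts to 43786, 39280 and 41310 counts (log2 fold change 1.504 ± 0.02, adjusted p = 1.19e-99). CHGA, another granin, rose by 1.06 ± 0.04 (adjusted p = 3.33e-53), and L1CAM, a neural adhesion molecule, by 1.29 ± 0.17 (adjusted p = 2.37e-11). BDNF, a neurotrophin, had 12, 4 and 11 counts in control and 34, 29 and 42 counts in OC2-OE libraries, a log2 fold change of 1.86 ± 0.32 (adjusted p = 1.68e-07) on few counts.

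Windows were available for 21 of the 32 target genes, and the RE1 core occurred in those of SYN1 and GRIA2, and with 1 mismatch in that of VGF. With 1 mismatch allowed, 0.225% of all windows held it. The matches are shown from RefSeq on GRCh38.p14 to set the element that REST reads beside the values of the genes that carry it there, with the 15 bases of the core in capitals and 5 bases on each side. They lie at chrX:47620069-47620093 on the minus strand (SYN1), chr4:157220387-157220411 on the minus strand (GRIA2) and chr7:101165556-101165580 on the plus strand (VGF).
SYN1: agcttCAGCACCGCGGACAGtgcct
GRIA2: cctttCAGCACCGAGGACAGcgcct
VGF: ggcttCAGCACGCTGGACAGcgccc
SYN1, a synaptic vesicle protein, had 362, 325 and 279 counts in control and 401, 393 and 394 counts in OC2-OE libraries, with a log2 fold change of 0.22 ± 0.07 (SE) and an adjusted p of 0.00583, above the threshold. GRIA2, a glutamate receptor subunit, had 34, 30 and 31 counts against 19, 28 and 32 counts (-0.35 ± 0.25, adjusted p = 0.217). VGF, a neuropeptide precursor, had a log2 fold change of -0.03 ± 0.03 (adjusted p = 0.389). Most RE1 elements lie outside windows of this length, so the search does not tell which other genes carry the element.

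**Figure D5:**
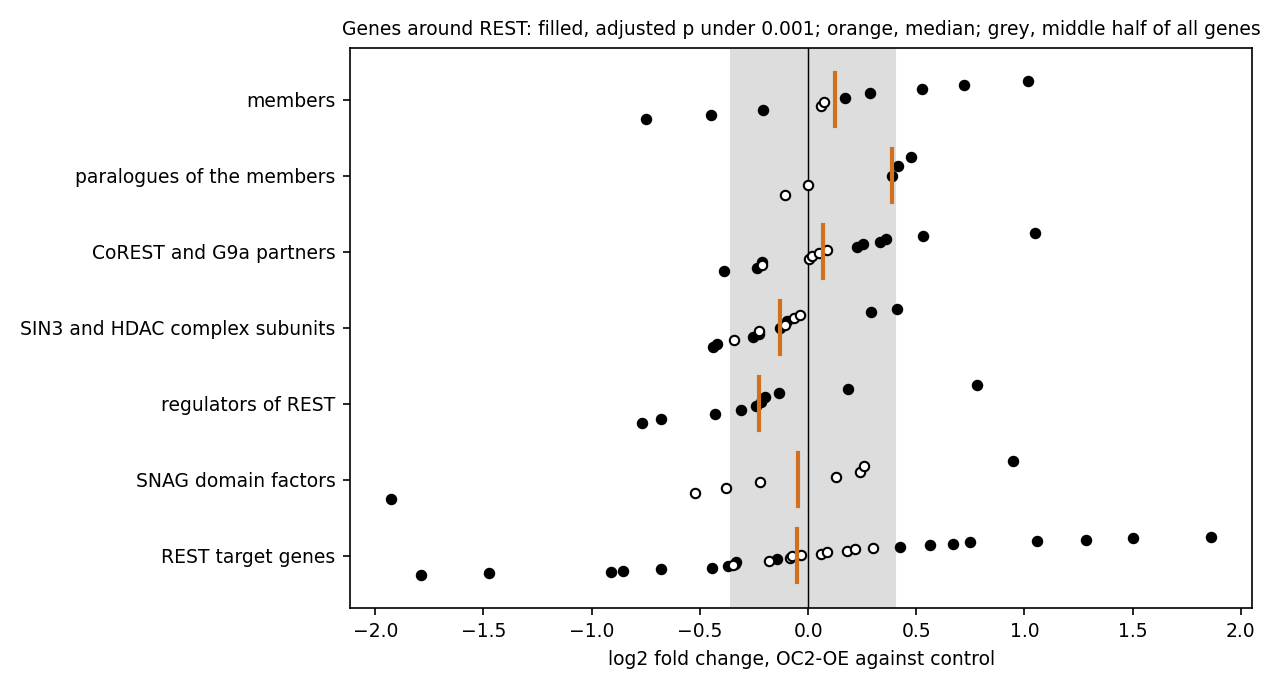
Log2 fold change of OC2-OE against control (horizontal axis) of each tested gene in the 10 members and in 6 lists of related genes. Filled points have an adjusted p under 0.001, orange bars are list medians and the grey band holds the middle of all tested genes, and in the row of REST target genes filled points lie on both sides from -1.79 to 1.86.

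The genes whose pattern over the 6 libraries was most like that of REST were TSPYL2 (Pearson r = 0.9989), BMAL1 (0.9985), CUL9 (0.9984), OAS1 (0.9983) and NUBPL (0.9982), out of 11193 genes with a mean log2 CPM of at least 3. Such values were common, since 1983 genes had an r above 0.95, and all genes share the same 6 libraries in 2 groups. None of the 5 was a member or on a list above, and their log2 fold changes ran from 0.25 (BMAL1) to 0.84 (NUBPL).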

How the data were processed

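The authors made stranded libraries from poly(A) RNA, aligned reads with STAR version 2.7.9a and assigned read pairs to genes by featureCounts version 1.6.0, per the labels and the file headers. The deposited values are raw counts for 62696 genes on GRCh38, taken with strand and without normalization. Gene symbols were matched for 62672 of these genes.

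Counts were normalized with TMM in edgeR version 4.0.16 (R version 4.3.3), filtered with filterByExpr and tested across 17307 genes by its quasi-likelihood test, with robust dispersions and the group as the only term. The threshold was 0.001 after Benjamini-Hochberg adjustment. Levels between genes used CPM divided by the deposited gene length, and family shares were compared with exact permutation tests. The depth of 16533284 to 19099337 counts limits the precision of genes with few counts. Alternatives were DESeq2's size factors, library size only, upper-quartile scaling, limma voom (limma version 3.58.1), DESeq2's Wald test (version 1.42.0), no filter or a minimum of 10 counts per library, ONECUT2 excluded, a replicate block, single libraries left out, thresholds of 0.05 on the adjusted p and of 1 on the absolute log2 change, and other lengths. On simulated data for this comparison (17225 genes), 154 of 184 changed genes (83.7%) were recovered with 0 false calls. The simulation gave every gene the same dispersion and changed few genes, whereas 56.5% of the tested genes passed in the data. It checks that the code runs correctly and does not measure the rate of false calls in these data. Motifs were searched with Python in RefSeq windows.

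Named genes are the members, their paralogues, ONECUT2, the 8 REST targets and the 4 genes of each other list with the largest absolute change under the threshold, targets with an RE1 match, and the 5 genes most like REST. A gene that this rule names is not reported here. CTDSP1, CTDSP2, BTRC, USP7 and USP15 are not in this rule and were picked with their values in view. The same holds for the cell type markers named singly and for the SNAG factors named for their few counts. The members and lists were chosen with earlier results of these data known, and the lists were written from general knowledge.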

Additional observations from a re-analysis of the deposited data

How the results depend on the processing

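No member changed its direction or its side of the adjusted p threshold in any of the 15 alternative settings. With an absolute log2 change of 1 or more required, 1 member was higher and 0 were lower, and over all genes 1435 were higher and 1564 were lower, since fewer genes meet both limits. Under the replicate block, the log2 fold changes were 0.72 for REST, 1.02 for RCOR1 and -0.75 for RCOR2, and 5 members were higher and 3 lower. The same-numbered libraries did not deviate together (correlations of 0.00141, 0.0272 and 0.0229), so the numbers were not taken to pair the samples, and the block changed no call of a member. Without division by length the share of RCOR2 differed by -6.61 percentage points, that of HDAC2 by -3.96, that of EHMT2 by 4.96 and that of KDM1A by -2.10. With GENCODE release 29 transcript lengths, chosen after the data were seen, the differences were -6.39 for RCOR2, 4.98 for EHMT2 and -2.20 for KDM1A. Leaving out any single library, the share differences ran from -14.8 to -13.2 for RCOR2, from -2.12 to -1.84 for HDAC2, from -6.94 to -5.29 for SIN3A, from 3.57 to 4.37 for EHMT2 and from -4.12 to -3.69 for KDM1A. All fits rest on 3 libraries a group, and depth limits BDNF, GRIA2, CALB1 and SRRM4, which had few counts.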
